A study of Mus musculus with 10 samples.

Results

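The 9 genes described here mark tissue macrophages or take part in the clearance of apoptotic cells: C1qa, C1qb, C1qc, Adgre1, Mertk, Axl, Csf1r, Cd68 and Timd4. They were chosen by symbol, with earlier results of these data known. By Ensembl identifier they were found as 9 of the 35375 features of a table of read counts per gene. All 9 passed the filter on low counts, as did 19511 features in all. The libraries were made from whole thymus of C57BL/6J mice 3 days after birth. The groups were homozygous KO of Usp7 (n = 3 animals), heterozygous KO (n = 3) and wild type (n = 4). Usp7, also named Hausp, encodes a deubiquitinating enzyme, and the labels place its knock-out in the hematopoietic system without naming the promoter that drove the recombinase cre. The series says that 2 of the wild types carried cre and 2 did not, without assigning libraries to either kind. Wild types 1 and 2 carry 2 wt words in their titles. Wild types 3 and 4 carry 1, and their column names hold the word het. Whether these words mark cre is not stated. An effect of cre itself on these genes was therefore not tested.

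Most thymocytes die by apoptosis in the thymus, and resident macrophages remove them. A dying cell exposes phosphatidylserine on its surface. Phagocytes recognise it directly, through receptors such as TIM4 (the product of Timd4), or through bridging proteins. Of these, GAS6 binds the receptor kinases MERTK and AXL, and protein S binds MERTK. The C1q complement protein, built of the chains encoded by C1qa, C1qb and C1qc, also coats dying cells. CSF1R is the receptor for the growth factors CSF1 and IL-34 on which macrophages depend. Adgre1 encodes F4/80, the classical surface marker of mouse macrophages, and Cd68 a glycoprotein of their late endosomes and lysosomes.

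The promoters of 3 of the genes are shown because these genes had the smallest, a middle and the largest fall of the 9 in homozygous KO. Each window runs from 250 bases before to 50 bases after the RefSeq gene start in GRCm38.p6, 5′ to 3′ on the strand of the gene. They lie at chr11:69666121-69666420 (minus strand, Cd68), chr4:136886151-136886450 (minus strand, C1qb) and chr11:46810549-46810848 (plus strand, Timd4). Capitals mark GAGGAA, a core bound by the macrophage factor PU.1, and TGCTGA, a core of the sites bound by MAF factors, each read on both strands.
Cd68: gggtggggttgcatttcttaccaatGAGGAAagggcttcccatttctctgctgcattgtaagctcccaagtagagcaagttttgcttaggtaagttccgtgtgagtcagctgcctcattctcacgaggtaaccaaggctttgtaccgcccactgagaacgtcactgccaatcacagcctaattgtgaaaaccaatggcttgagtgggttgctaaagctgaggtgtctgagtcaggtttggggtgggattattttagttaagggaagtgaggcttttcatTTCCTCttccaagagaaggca
C1qb: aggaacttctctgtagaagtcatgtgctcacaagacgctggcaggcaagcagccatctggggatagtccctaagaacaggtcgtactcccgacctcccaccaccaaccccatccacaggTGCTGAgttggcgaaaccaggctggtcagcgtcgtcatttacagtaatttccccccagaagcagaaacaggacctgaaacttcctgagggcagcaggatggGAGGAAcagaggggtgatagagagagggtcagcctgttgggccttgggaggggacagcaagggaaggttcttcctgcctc
Timd4: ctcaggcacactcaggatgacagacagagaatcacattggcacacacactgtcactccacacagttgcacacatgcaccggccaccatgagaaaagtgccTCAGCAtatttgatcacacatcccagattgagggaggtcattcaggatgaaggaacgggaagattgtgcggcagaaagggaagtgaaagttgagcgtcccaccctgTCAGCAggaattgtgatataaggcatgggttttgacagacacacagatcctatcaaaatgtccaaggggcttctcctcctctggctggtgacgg
Motifs were counted in the windows of 6 of the 9 genes (C1qb, C1qc, Mertk, Axl, Cd68 and Timd4). C1qa, Adgre1 and Csf1r were left out of these counts. GAGGAA was present in 4 of the 6, those of C1qb, C1qc, Axl and Cd68, and in 28.28% of all 32851 windows of this length. TGCTGA was present in the windows of C1qb and Timd4 and in 19.48% of all windows, and a motif of the IRF type, a pair of GAAA runs held 2 bases apart, was in none of the 6 and in 3.443% of all windows. No match of one motif overlapped a match of another. A match describes the letters of the window and is not a measured binding site.

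The wild-type libraries were the shallowest, with 39.8 to 86.4 M counts each, against 90.5 to 97.4 M for heterozygous and 92.3 to 122 M for homozygous KO. Levels are given as CPM, counts relative to the TMM-scaled library size. Usp7 itself had 676, 670, 594 and 589 CPM in the wild types, 472, 516 and 516 CPM with 1 allele knocked out and 303, 422 and 408 CPM with both. It was lower in homozygous KO than in wild type by a log2 difference of -0.74 (SE 0.11, adjusted p = 0.000525, edgeR quasi-likelihood test). Thus 59.7% of the wild-type level was left in the whole organ. Xist exceeded 100 CPM in 3 wild types, in 0 libraries of heterozygous KO and in 1 of homozygous KO, so libraries with high Xist were spread unevenly over the groups. All 9 macrophage and clearance genes were detected in every wild-type library, with at least 57 counts.

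All 9 genes were lower in homozygous KO than in wild type (adjusted p under 0.05 for each, edgeR quasi-likelihood test over all genes tested). Of all genes tested, 25.8% passed in either direction and 13.2% passed as lower. The highest homozygous KO library lay below the lowest wild-type library for every one of the 9, a separation found for 16.4% of all genes. Their median log2 fold change was -1.45, against -0.01 over all genes tested. Homozygous KO kept from 3.38% (Timd4) to 71.8% (Cd68) of the wild-type level. Summed over the 9 genes, the wild types had 76.2 to 99.6 CPM, the heterozygous KO 66.4 to 94.3 CPM and the homozygous KO 33.6 to 37.8 CPM. In bulk tissue, fewer cells that express these genes, macrophages or others, and less RNA of these genes per cell cannot be told apart.

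**Figure D1:**
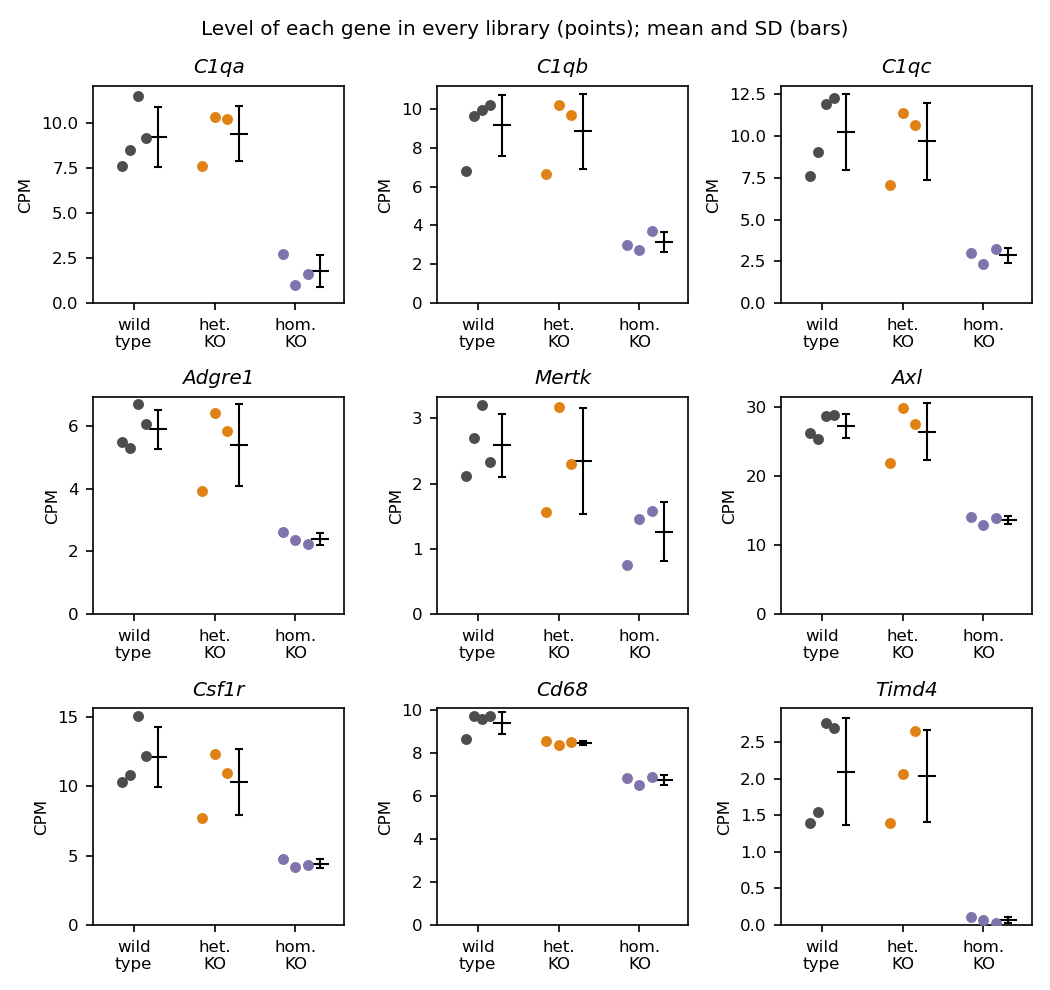
Level of each of the 9 genes in every library, in CPM (y axis, starting at 0), by group (x axis); points are libraries and bars the mean with SD. The homozygous KO libraries lie below all wild-type libraries in every panel, and the heterozygous KO libraries overlap the wild types except for Cd68.

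Timd4, a phosphatidylserine receptor of resident macrophages, fell furthest. It had 0.113, 0.0685 and 0.0222 CPM in homozygous KO, which are 13, 7 and 2 counts. It had 1.40, 1.54, 2.76 and 2.70 CPM in wild type and 1.40, 2.06 and 2.66 CPM in heterozygous KO. No homozygous KO library came near the other 2 groups, and one of them lay under the floor of 3 counts. The log2 fold change against wild type was -4.89 (SE 0.49, adjusted p = 4.4e-05, edgeR), which is 3.38% of the wild-type level.

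The receptor kinases of the phosphatidylserine pathway fell less. Axl, the most highly counted of the 9, had 14.1, 12.96 and 13.9 CPM in homozygous KO and 26.2, 25.5, 28.7 and 28.9 CPM in wild type. Heterozygous KO had 21.9, 29.98 and 27.6 CPM. The homozygous KO libraries were close together, at 49.9% of the wild-type level (log2 fold change -1.004, SE 0.11, adjusted p = 6.38e-05, edgeR). Mertk, the kinase best known for the uptake of apoptotic cells by macrophages, had 0.746, 1.46 and 1.58 CPM in homozygous KO and 2.11, 2.70, 3.21 and 2.33 CPM in wild type. Its heterozygous KO values were 1.56, 3.17 and 2.31 CPM, so the lowest of them lay within the homozygous KO range. Its fall was the least certain of the 9, with a log2 fold change of -1.04 (SE 0.31, adjusted p = 0.0304, edgeR). That call was lost when homozygous KO 1 (adjusted p = 0.0824), homozygous KO 2 (0.0504), wild type 2 (0.0633) or wild type 3 (0.0727) was left out, with an Xist term in the fit (0.0905), and with only the wild types of 1 wt word (0.0904) or of 2 wt words (0.124) in the title.

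The C1q chains fell together but not by the same amount. C1qa had 2.73, 0.978 and 1.64 CPM in homozygous KO against 7.64, 8.52, 11.5 and 9.20 CPM in wild type. C1qb had 2.99, 2.75 and 3.72 CPM against 6.80, 9.63, 9.95 and 10.2 CPM. C1qc had 2.98, 2.36 and 3.21 CPM against 7.61, 9.03, 11.96 and 12.3 CPM. In each case the homozygous KO libraries lay well below the wild types, with the widest relative spread in C1qa. The log2 fold change was -2.37 for C1qa (SE 0.30, adjusted p = 0.000243), -1.54 for C1qb (SE 0.20, adjusted p = 0.000254) and -1.85 for C1qc (SE 0.22, adjusted p = 0.00016, all edgeR). These are 19.4%, 34.4% and 27.8% of the wild-type levels. In heterozygous KO the chains had 7.64, 10.4 and 10.3 CPM (C1qa), 6.65, 10.2 and 9.68 CPM (C1qb) and 7.07, 11.4 and 10.7 CPM (C1qc), within or just outside the wild-type range.

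Csf1r had 4.76, 4.18 and 4.36 CPM in homozygous KO, 7.71, 12.3 and 10.9 CPM in heterozygous KO and 10.3, 10.8, 15.1 and 12.2 CPM in wild type. It fell to 36.5% of the wild-type level (log2 fold change -1.45, SE 0.18, adjusted p = 0.000194, edgeR). Its exons overlap those of Hmgxb3 on the opposite strand, and its counts may hold reads of that gene where strand was not used in counting. Adgre1 had 2.61, 2.38 and 2.23 CPM in homozygous KO, 3.93, 6.43 and 5.86 CPM in heterozygous KO and 5.50, 5.32, 6.72 and 6.08 CPM in wild type. It fell to 40.7% of the wild-type level (log2 fold change -1.30, SE 0.18, adjusted p = 0.000457, edgeR). Both genes thus lay between Axl and the C1q chains in the size of the fall.

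Cd68 changed least. It had 6.85, 6.51 and 6.92 CPM in homozygous KO, 8.56, 8.38 and 8.53 CPM in heterozygous KO and 8.64, 9.72, 9.57 and 9.72 CPM in wild type. The 3 groups did not overlap, but the highest heterozygous KO library (8.56 CPM) lay just below the lowest wild type (8.64 CPM). That wild type stood apart from the others of its group. Homozygous KO kept 71.8% of the wild-type level (log2 fold change -0.48, SE 0.09, adjusted p = 0.00304, edgeR). Cd68 is also made by neutrophils, monocytes and dendritic cells, as background.

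**Figure D2:**
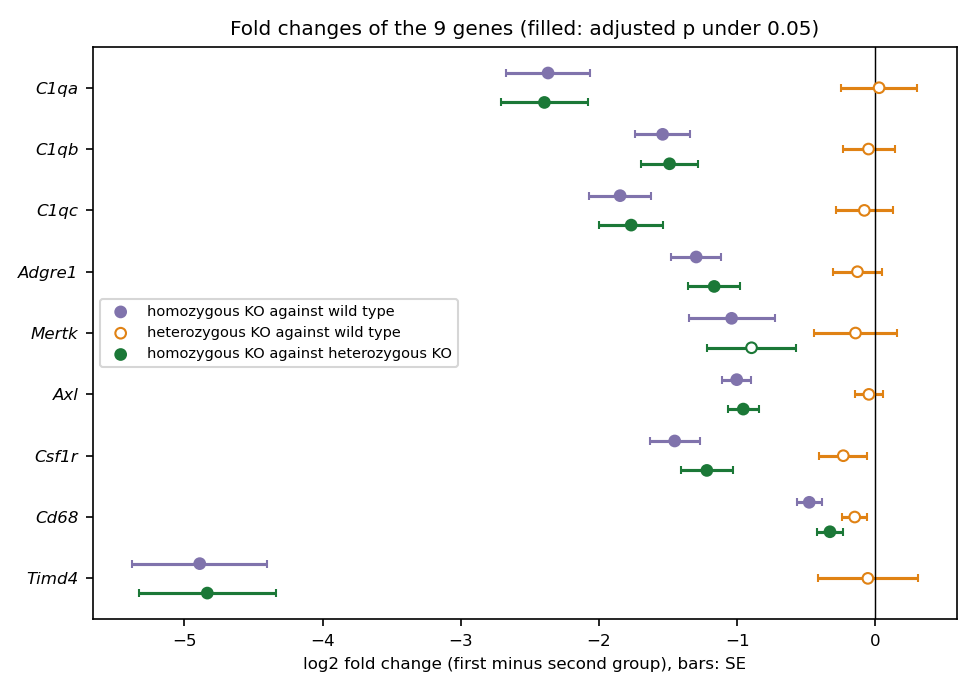
Log2 fold change with SE (x axis) of each of the 9 genes (y axis) in the 3 comparisons; filled points passed at adjusted p under 0.05. The 9 falls against wild type run from -0.48 for Cd68 to -4.89 for Timd4, while the heterozygous KO values lie between -0.23 and 0.03 and none passed.

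Heterozygous KO did not differ detectably from wild type in any of the 9 genes. With edgeR 0 of 9 passed, 0 had an unadjusted p under 0.05, and 0 passed with DESeq2. Of all genes tested, 0.0154% passed with edgeR and 7.28% had an unadjusted p under 0.05. The log2 differences ran from -0.23 for Csf1r (approximate 95% interval -0.57 to 0.11) to 0.03 for C1qa (-0.51 to 0.57), with 8 of 9 below 0. The interval was narrowest for Cd68, at -0.33 to 0.03, and for Axl, at -0.25 to 0.15. For Timd4 it was -0.76 to 0.65. Cd68 was the only one of the 9 whose heterozygous KO libraries all lay below the wild types (log2 difference -0.15, SE 0.09, adjusted p = 0.779, edgeR), a separation found for 4.27% of all genes. The comparisons with wild type share the wild-type libraries.

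Homozygous KO was lower than heterozygous KO for 8 of the 9 genes, where 17.1% of all genes passed in either direction and 9.5% as lower. The median log2 difference of the 9 was -1.22. Timd4 differed by -4.83 (SE 0.50, adjusted p = 7.95e-05) and C1qa by -2.40 (SE 0.31, adjusted p = 0.00041, edgeR). Cd68 differed by -0.33 (SE 0.10, adjusted p = 0.0378, edgeR), a call that was lost under 12 of 20 alternatives, among them leaving out any homozygous or heterozygous KO library (adjusted p = 0.0605 to 0.113) and leaving out wild type 2 (0.0586). Mertk did not pass (log2 difference -0.90, approximate 95% interval -1.53 to -0.26, adjusted p = 0.0862, edgeR). It passed without heterozygous KO 1 (0.0449), with DESeq2 (0.0366), with the replicate block (0.025) and with the animal-number block (0.0396).

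Set side by side per kb of exons (GENCODE M21, GRCm38), the mean levels had the same order in wild type and heterozygous KO and another in homozygous KO. In wild type C1qa led with 8.87 ± 1.61 CPM per kb (SD, n = 4), followed by C1qb with 8.41 ± 1.45 and Cd68 with 7.49 ± 0.414. These 3 did not differ beyond their spread, nor did Axl with 5.43 ± 0.349 and C1qc with 5.29 ± 1.18. Csf1r with 2.10 ± 0.371 and Adgre1 with 1.82 ± 0.195 overlapped likewise, and Timd4 with 0.966 ± 0.335 and Mertk with 0.597 ± 0.110 were lowest. In homozygous KO Cd68 led with 5.38 ± 0.171 CPM per kb (SD, n = 3). C1qb with 2.90 ± 0.468 and Axl with 2.71 ± 0.119 came next and overlapped, and C1qa stood at 1.72 ± 0.852. Timd4 was last with 0.0312 ± 0.0209 CPM per kb, below Mertk with 0.291 ± 0.104. In wild type the means of Timd4 and Mertk stood in the opposite order, but their spreads overlapped.

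**Figure D3:**
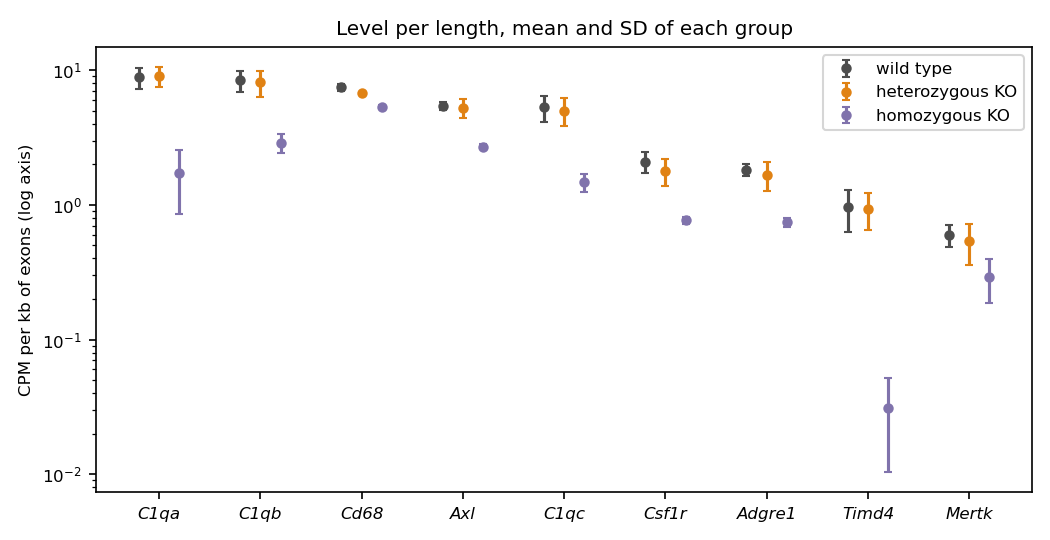
Mean level of each gene in CPM per kb of exons (y axis, log scale) in each group, with SD as bars; genes are ordered by their wild-type level (x axis). Cd68 stood highest and Timd4 lowest in homozygous KO, while wild type and heterozygous KO lie close together for each gene.

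Ratios between genes of 1 library do not depend on scaling, and were taken to Csf1r with no test. The counts of Csf1r may hold reads of Hmgxb3, as said above. Relative to Csf1r, Timd4 was lower in every homozygous KO library than in any wild type (difference of mean log2 ratios -3.58), and so was C1qa (-1.04). C1qc was lower by 0.39 on average, but its highest homozygous KO and lowest wild-type ratios both round to -0.44. C1qb (-0.09), Adgre1 (0.14) and Mertk (0.35) overlapped between the groups. Axl (0.43) and Cd68 (0.96) were higher relative to Csf1r in every homozygous KO library. The picture depends on the reference: relative to Cd68, C1qb, Adgre1, Mertk and Axl were lower in every homozygous KO library than in any wild type. In heterozygous KO, the ratio of C1qa to Csf1r was above every wild type. The log2 ratio of C1qa to C1qb was 0.17, -0.18, 0.21 and -0.15 in the wild types and 0.20, 0.02 and 0.08 in the heterozygous KO. In the homozygous KO it was -0.13, -1.49 and -1.18. One homozygous KO library thus kept the wild-type balance of the 2 chains and the others did not.

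**Figure D4:**
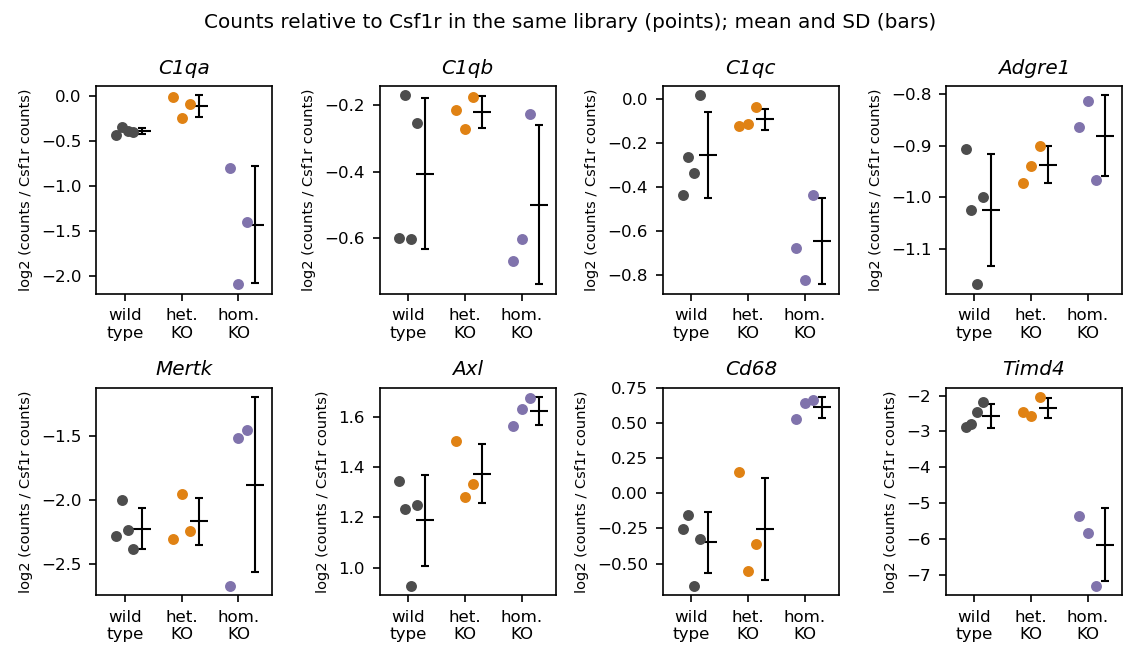
Log2 ratio of the counts of 8 genes to those of Csf1r in the same library (y axis), by group (x axis); points are libraries and bars the mean with SD. Timd4 and C1qa fell further than Csf1r in homozygous KO, Axl and Cd68 less far, and C1qb, Adgre1 and Mertk overlapped.

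Within the groups some libraries deviated from the group mean in 1 direction for most of the 9 genes and others did not. Wild type 1 was below its group mean for 9 of 9 genes, heterozygous KO 1 for 8 and homozygous KO 2 for 7. Wild type 3 and heterozygous KO 3 were above it for 9 of 9, wild type 4 and heterozygous KO 2 for 8 and homozygous KO 1 for 7. Wild type 2 (3 above and 6 below) and homozygous KO 3 (6 above and 3 below) were mixed. Over the 36 pairs of genes, the correlation of deviations from the group means across the 10 libraries had a median of 0.55 and ran from -0.21 (C1qa and Mertk) to 0.94 (Adgre1 and Csf1r). Of the 36 pairs 22 exceeded 0.5 and 2 were negative, and Cd68 was near 0 with Adgre1 (0.03), Mertk (0.06) and Axl (0.13). No value over pairs of all genes was computed. These are descriptions over libraries that differ in depth, with no test. Wild types 1 and 2 had 39.8 and 41.0 M counts, and wild types 3 and 4 had 86.4 and 81.0 M. Heterozygous KO 1, below its group mean for 8 genes, was the deepest of its group (97.4 M). Among the wild types depth also followed the wt words of the titles, so depth and these words cannot be told apart there. Whether cre followed them is not stated. All of the 9 genes but Mertk and Cd68 were higher in each of wild types 3 and 4 than in wild types 1 and 2. Usp7 had 676 and 670 CPM in wild types 1 and 2, and 594 and 589 CPM in wild types 3 and 4. The part of depth or cre in the deviations was not tested. By the same measure the tested genes most like the mean of the C1q chains were Rex1bd, Man1b1, Mvd, Dsg2 and Eral1 (0.93 to 0.95), and those most like Csf1r were Pelo, Endod1, Egln2, Tjap1 and Rnf126 (0.95 to 0.96).

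The animal numbers in the labels fall into 44 to 51 (1 homozygous KO and 3 wild types) and 56 to 63 (2 homozygous KO and 1 wild type). The difference between homozygous KO and wild type was negative in both blocks for all 9 genes. For Csf1r it was -1.32 and -1.51, for C1qa -1.72 and -2.84, for Timd4 -3.75 and -5.39, and for Mertk -1.79 and -0.61 on the log2 scale. Each block has an arm of 1 library, so these values have no test.

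The other genes of the clearance pathway did not fall as a whole. Of 21 tested phosphatidylserine receptors and bridging molecules, 7 fell and 5 rose in homozygous KO against wild type (median log2 fold change -0.14). Of all genes 13.2% fell and 12.5% rose. Tyro3, the remaining kinase of the family of Axl and Mertk, fell (-1.66, SE 0.25, adjusted p = 0.000629, edgeR), and so did the integrin chain Itgb3 (-3.19), the scavenger receptor Stab2 (-2.20) and the bridging protein Mfge8 (-0.81). Pros1, which encodes the bridging protein S, rose from a mean of 1.01 to 9.16 CPM (3.15, SE 0.33, adjusted p = 6.45e-05, edgeR), as did Anxa1 (2.21). Gas6, which encodes a ligand of both Axl and Mertk, was at 0.42 (SE 0.34, adjusted p = 0.403, edgeR). The receptor kinases, Pros1 and Gas6 thus did not move in 1 direction.

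Of 18 tested genes of the engulfment machinery, 3 fell and 4 rose (median 0.07), with Abca1, a lipid transporter, at -2.19, Ptk2b at -0.68 and the small GTPase Rac1 at 0.31. Of 18 genes for find-me signals and phosphatidylserine exposure, 6 fell and 3 rose (median -0.07). These included the fractalkine receptor Cx3cr1 (-2.97), S1pr1 (-2.12) and the scramblase Ano6 (0.51). Of 26 genes for the digestion of engulfed cells, 8 fell and 5 rose (median 0.00). The lysosomal proteases Ctss (-1.78, SE 0.11, adjusted p = 1.59e-06, edgeR) and Lgmn (-1.30) fell, and the lysosomal nuclease gene Dnase2a rose (0.66, SE 0.18, adjusted p = 0.0199, edgeR), a call lost without homozygous KO 3 (0.0682).

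Of 11 tested sterol and nuclear receptor genes, 6 fell and 0 rose (median -0.91), among them the cholesterol exporter Abcg1 (-1.25), Mylip (-1.24) and Apoe (-1.17), while the liver X receptor gene Nr1h3 was at 0.06 (adjusted p = 0.854, edgeR). Of 15 macrophage transcription factors, 7 fell and 1 rose (median -0.84). Zeb2 (-2.10), Maf (-2.01), Irf8 (-1.58) and Spic (-1.50, adjusted p = 0.00401) fell. Spi1, which encodes PU.1, was called lower (-0.96, SE 0.32, adjusted p = 0.0458, edgeR) but lost the call under 13 of 20 alternatives, among them leaving out any one library but homozygous KO 2 (0.0510 to 0.127). Apoe and Irf8 were named after their values were seen.

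Of 28 other macrophage and monocyte surface genes, 9 fell and 7 rose (median 0.21). Msr1, a scavenger receptor, rose (2.75, adjusted p = 0.000348). Aif1 (-1.88) and Vcam1 (-1.36) fell, and Cd5l was at -0.36 (adjusted p = 0.722, edgeR). In the CSF1 and CSF2 receptor axis 3 of 11 fell and 3 rose (median 0.04). Of the 2 ligands of CSF1R, Il34 fell (-2.29, SE 0.30, adjusted p = 0.000279) and Csf1 was called higher (1.32, adjusted p = 0.0265, edgeR) with overlapping groups. The call of Csf1 was lost under 10 of 20 alternatives, among them without homozygous KO 2 (0.129) or 3 (0.0754) or wild type 1 (0.0636), 2 (0.0649) or 3 (0.0566). Of 27 tested complement genes other than C1q, 7 fell and 5 rose (median 0.05). The C1 protease genes C1ra (2.14, adjusted p = 0.0172) and C1s1 (1.86, adjusted p = 0.0278, edgeR) were called higher at under 1 CPM, opposite to the C1q chains. C1ra lost the call without homozygous KO 2 (0.0532) or 3 (0.0724), and C1s1 without homozygous KO 2 (0.119) or 3 (0.0823) or wild type 1 (0.0655), 3 (0.0574) or 4 (0.0560). The regulator Cd46 fell (-1.05), and C3 was at -0.14 (adjusted p = 0.741, edgeR) but was called lower without homozygous KO 2 (-0.60, 0.043). In heterozygous KO against wild type no gene of these 9 lists passed with edgeR.

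**Figure D5:**
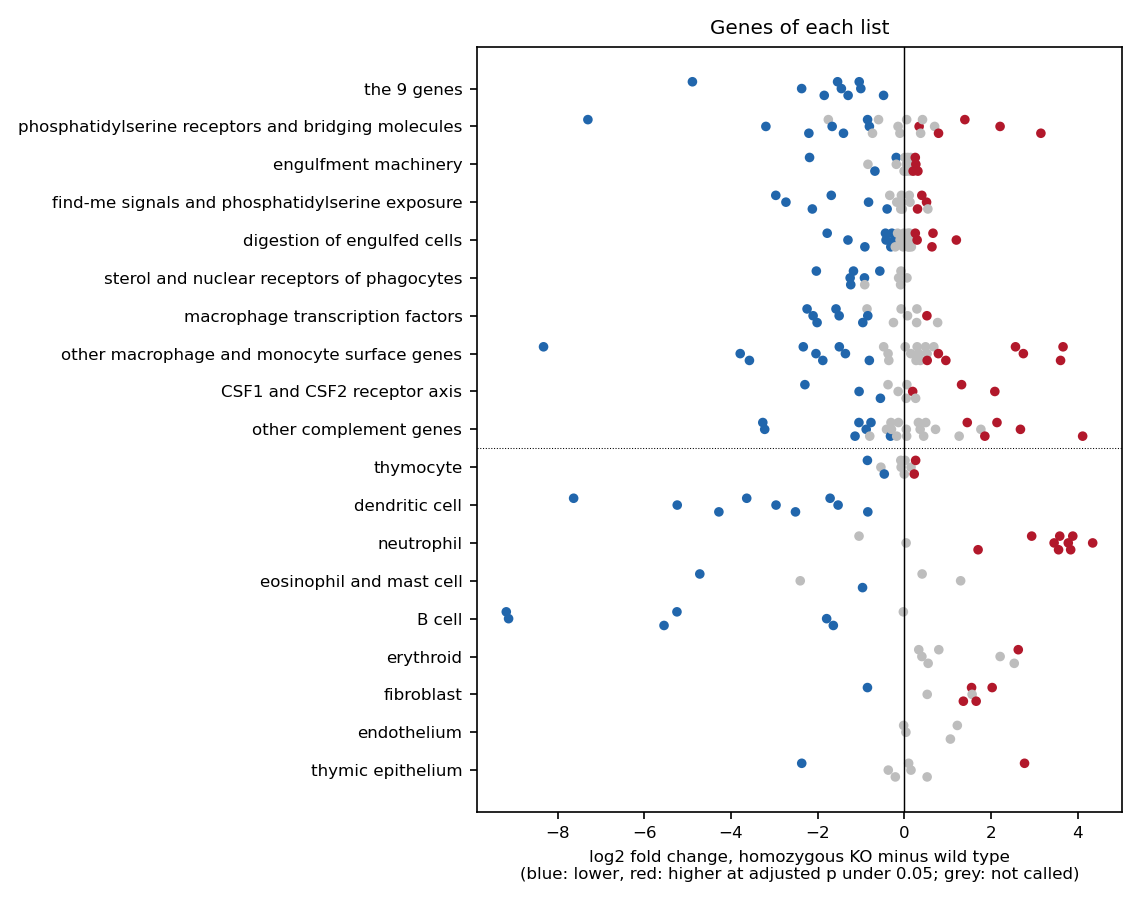
Log2 fold change between homozygous KO and wild type (x axis) of the tested genes of each list (y axis), with pathway lists above the dotted line and cell type markers below; blue and red mark genes lower and higher at adjusted p under 0.05. All 9 macrophage and clearance genes are blue, as are all 9 dendritic cell markers, while 9 of 11 neutrophil markers are red.

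Markers of other cell types moved as well, and their part in the falls was not tested. All 9 dendritic cell markers fell (median log2 fold change -2.96), with a summed level of 7.10 to 20.1 CPM in homozygous KO, 72.2 to 91.0 in heterozygous KO and 69.2 to 107 in wild type. Of 11 neutrophil markers 9 rose (median 3.56), with sums of 60.9 to 331, 9.63 to 14.98 and 10.9 to 26.9 CPM. Of 7 B cell markers 6 fell, and of 10 thymocyte markers 2 fell and 2 rose, the thymocyte sum being 8902 to 9279 CPM in homozygous KO and 10661 to 12024 CPM in wild type. Of 7 fibroblast markers 4 rose and 1 fell, of 5 tested eosinophil and mast cell markers 2 fell, of 7 erythroid markers 1 rose, of 7 thymic epithelial markers 1 rose and 1 fell, and of 4 endothelial markers 0 passed. Among the macrophage surface genes Vsig4, a marker of some resident macrophages, had 0 counts in every library. Cd163 had 0 counts in every homozygous KO library, against 29 to 33 in heterozygous KO and 12 to 45 in wild type.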

How the data were processed

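The authors deposited 1 table of raw read counts per gene, not normalized, with 1 column per mouse thymus (n = 10). Per the labels, ribosomal RNA was removed with a RiboErase kit and the libraries were stranded. The submitters' processing notes name CASAVA, STAR 2.4.1d, HTSeq 0.6.1p1 and the builds NCBIM37 and mm9, without roles. The strand setting is not given in the sources used here. Columns were matched to titles by animal and library number. In the column names of 2 wild types the word het appears, and the group of the title was kept. Titles carry separate animal numbers.

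All counts were tested with edgeR 4.0.16 in R 4.3.3 (TMM, filterByExpr, glmQLFit and glmQLFTest, 1 fit over the 10 libraries), and p-values were adjusted by Benjamini-Hochberg over the 19511 genes tested. A gene was called at an adjusted p under 0.05. Of the 35375 features 908 had no Ensembl identifier. Totals were 39.8 to 122 M, and 3 counts were taken as the floor. Intervals and floors cover counting error only, except intervals of fold changes, which come from the fit. These use a normal approximation with the SE, and are narrower than the quasi-likelihood test implies. Library ratios used counts plus 0.5. Levels per length used GENCODE M21 exons of GRCm38, and promoters came from RefSeq GRCm38.p6. Symbols were looked up by Ensembl identifier in a list of gene names. No gene coordinates of the files' build are given.

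The 9 genes, the lists and the tests were chosen with earlier results of these data known. Genes outside the 9 were named by symbol whatever their values, or from each list as at most the 2 called genes with the largest change in each direction at an average log2 CPM of at least 0, left out where any alternative ended the call, a limit added after seeing the data. One gene that the naming rule gives is not reported here. The 5 genes most like the C1q chains and Csf1r were taken by correlation, leaving out predicted genes and genes with an average log2 CPM under 0. Alternatives were DESeq2 1.42.0, other scalings, no filter, replicate or animal-number blocks, an Xist term, subsets of the wild types, only the groups compared, and leaving out each library. The 12 pairs of libraries within groups differed by a chi-square of 12.6 to 108 per degree of freedom, so none was counted as a duplicate. The scripts were tested on simulated data.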

Additional observations from a re-analysis of the deposited data

Results flagged for a closer look

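In wild type, the lowest library stood apart from the other 3 for 2 of the 9 genes by the gap between it and its neighbour relative to the range of the group. Wild type 1 had 6.80 CPM of C1qb (gap ratio 0.830) and 8.64 CPM of Cd68 (0.862), above the critical value of the test for 4 samples. Chance marks about 1 in 20 groups in this way. Wild type 1 is the library that lay below the group mean for 9 of 9 genes.

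The effect of homozygous KO differed from that of heterozygous KO for 8 of the 9 genes, as tested directly with edgeR, where 17.1% of all genes passed. Both effects are measured against the same wild types, so the difference equals homozygous against heterozygous KO. It was -2.40 for C1qa (adjusted p = 0.00041), -1.49 for C1qb (0.000586), -1.77 for C1qc (0.000402) and -1.17 for Adgre1 (0.00164) on the log2 scale. It was -0.96 for Axl (adjusted p = 0.000182), -1.22 for Csf1r (0.00112), -0.33 for Cd68 (0.0378) and -4.83 for Timd4 (7.95e-05). The call of Cd68 was lost under 12 of 20 alternatives, and Mertk, which did not pass (0.0862), gained one under 4.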

How the results depend on the processing

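Against wild type, 8 or 9 of the 9 genes were called lower in homozygous KO under every alternative, Mertk being the one lost, and 0 in heterozygous KO. In homozygous against heterozygous KO, 7 to 9 were called. No alternative changed the direction of the 9 genes in either comparison of homozygous KO. The replicate numbers did not pair the samples (correlations of same-numbered deviations -0.10 to 0.23). With the replicate block 5 genes in all were called in heterozygous KO against wild type (3 without it), and the differences of C1qb, C1qc and Timd4 became 0.00770, 0.0292 and 0.11. In homozygous against heterozygous KO, Mertk gained its call under the block (adjusted p = 0.025) and Cd68 lost it (0.0736).

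Counts over all genes were 5030 for homozygous KO against wild type (2670 with only the wild types of 1 wt word, 3945 to 5152 with a library left out), 3 for heterozygous KO (71 with DESeq2, 2 to 6 with a library left out, 6 without wild type 4) and 3342 for homozygous against heterozygous KO (2153 to 3370, lowest without heterozygous KO 3). With library totals as scaling the median of all genes against wild type was -0.11, and 29.0% of calls were higher in place of 48.6%. Against heterozygous KO the share was 26.9% in place of 44.6%.

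Differences of heterozygous KO near 0 changed sign. The Xist term gave C1qb 0.32, C1qc 0.25, Mertk 0.21 and Timd4 0.0386. Wild types of 1 wt word gave C1qa -0.14, and those of 2 gave C1qb 0.11, C1qc 0.22, Axl 0.0351 and Timd4 0.47. Leaving out a library gave ranges of -0.0530 to 0.16 (C1qa), -0.17 to 0.13 (C1qb), -0.21 to 0.11 (C1qc), -0.27 to 0.0629 (Adgre1), -0.42 to 0.0880 (Mertk), -0.14 to 0.0809 (Axl) and -0.29 to 0.16 (Timd4). Among uncalled other genes against wild type, Nr1h3 was -0.0333 with library totals and -0.0889 with the animal-number block (-0.15 to 0.20 with a library left out), Cd5l 0.54 with wild types of 1 wt word (-1.14 to 0.13) and C3 0.0561 with those of 2 (-0.60 to 0.0895). For the homozygous KO minus wild type ratios, Cd68 in place of Csf1r gave -1.997 (C1qa), -1.05 (C1qb), -1.35 (C1qc), -0.81 (Adgre1), -0.61 (Mertk), -0.52 (Axl) and -4.54 (Timd4), and C1qb as reference, chosen after seeing the data, gave -0.95 (C1qa). Calls of Spi1, Csf1, C1ra, C1s1 and Dnase2a were lost under 13, 10, 4, 9 and 2 of 20 alternatives. The cause of these changes was not tested. Depth limits Timd4 most, with 2 to 13 counts per homozygous KO library.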
